A study of Ovis aries with 6 samples.

Results

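CCN1, CCN2 and ANKRD1 are 3 genes whose transcription is widely used as a readout of mechanical signalling in adherent cells. They were found on a sheep expression array by the names and descriptions of its probes, with CYR61 as the older name of CCN1 and CTGF, or connective tissue growth factor, as that of CCN2. They are 3 of the 984 genes that could be named on the array. Of its 15008 gene probes, 5 were theirs: 3 for CCN1, 1 for CCN2 and 1 for ANKRD1. The genes were chosen by their higher level in corneal than in epidermal cells of this study, so these values are described here with no test.

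CCN1 and CCN2 encode secreted matricellular proteins, which sit in the extracellular matrix and signal through integrins and heparan sulfate proteoglycans without bearing load themselves. ANKRD1 encodes the cardiac ankyrin repeat protein, a stress-induced protein known from heart and skeletal muscle, where it binds titin and enters the nucleus. In spread cells on stiff substrates the coactivators YAP and TAZ enter the nucleus, bind TEAD factors and switch on genes such as these, while the LATS kinases of the Hippo pathway hold YAP and TAZ in the cytoplasm. TGF-beta and the actin-regulated factor SRF also induce CCN2 and CCN1 in many cell types.

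RNA came from 3 samples of sheep (Ovis aries) corneal epithelial cells and 3 of skin epidermal stem cells, with 1 single-colour array per sample. The study's design text calls the samples cell lines, and the labels do not say whether they were separate cultures or came from separate animals. The cells of both kinds were untreated and unmodified as far as the labels say. They were isolated by different published methods, so method and cell type cannot be told apart, and adherent cells of both kinds were detached with trypsin before RNA extraction. Age, culture substrate and cell density are not given in the sources used here, and a p-value measures only the spread between these samples.

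The corneal arrays had 72.9% to 75.9% of gene spots well above background and the epidermal arrays 77.5% to 81.6%, and no gene spot was saturated. Arrays correlated at 0.995 to 0.996 within the corneal group, at 0.997 to 0.998 within the epidermal group and at 0.968 to 0.969 between them. All arrays lay on 1 slide, the corneal ones in slide row 2 and the epidermal ones in slide row 1, so a row effect cannot be told apart from cell type. Levels are the log2 of the processed signal minus the array's 75th percentile, so a level of 0 is a spot as bright as that percentile. A probe's level depends on its own sequence, so levels were compared between arrays and not between genes. In the test, each probe without a gene name was an unnamed transcript of its own. Several of these may belong to the same gene, and all counts and shares of genes tested include them. Of the 11352 genes and unnamed transcripts tested, 26.7% passed an adjusted p of 0.05 with a rise in corneal cells and 32.6% with a fall, 59.2% in all, and the median change of all of them was −0.04.

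The arrays did not identify the corneal and epidermal cells by keratins. KRT5 and KRT14, the basal keratins of skin and other stratified epithelia, were not well above background on any corneal array and were so on 2 of 3 epidermal arrays each. KRT15, another listed keratin, was kept, at a mean level of −6.54 in corneal and −6.40 in epidermal cells, and did not pass (adjusted p = 0.416). KRT19, listed as a corneal marker, had no probe that was kept. TP63, the regulator of stratified epithelial progenitors, was well above background on none of the 6 arrays, and KRT3 and KRT12, the corneal keratins, had no probe under these names (not analysed here). PAX6, an eye field regulator, was 0.31 ± 0.07 higher in corneal cells (log2, SE, adjusted p = 0.0129), but not with no scaling between arrays (0.13) or with the normexp background correction as planned (−0.26). The other corneal marker measured, the retinaldehyde dehydrogenase ALDH1A1, went the other way and fell by 4.83 ± 0.05 in corneal cells (adjusted p = 1.65e-07), with levels of −3.23, −3.27 and −3.10 in corneal cells, against 1.66, 1.63 and 1.61 in epidermal cells. Vimentin (VIM), a mesenchymal intermediate filament also made by many cultured cells, was at a level of 8.60 ± 0.02 in corneal and 8.65 ± 0.13 in epidermal cells (SD, n = 3 each). Decorin (DCN), a collagen-binding proteoglycan of connective tissue, stood at 8.15 ± 0.03 in corneal and 8.07 ± 0.44 in epidermal cells, and COL1A2, a chain of type I collagen, at 7.14 ± 0.04 in corneal and 7.22 ± 0.05 in epidermal cells (SD, n = 3 each). None of these 3 passed the test, and the other kept probe of DCN stood at −0.44. Without epidermal replicate 1, VIM stood at −0.12 (adjusted p = 0.0227) and DCN at −0.18 (adjusted p = 0.0115), and both passed. With no scaling, VIM passed at −0.22 (adjusted p = 0.015) and COL1A2 at −0.25 (adjusted p = 0.0128). COL1A2 also passed with the mean of its kept probes, at −0.17 (adjusted p = 0.0091), and with normexp once the 8 spots were left out that had an extreme local background, at −0.10 (adjusted p = 0.0256). They are 3 of 13 measured fibroblast and mesenchymal markers, of which 2 rose, 7 fell and 4 did not pass. The largest falls were those of POSTN, the matrix protein periostin, and of COL3A1, a fibrillar collagen chain. On no corneal array was POSTN well above background, and it was at least 59.7-fold lower there, a bound set by the lowest signals well above background, with an adjusted p of 4.8e-06 for the fitted change. COL3A1 fell by 4.51 ± 0.05 (adjusted p = 1.65e-07).

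The probes that carry the values are 60-base oligonucleotides, and their sequences show which stretches of transcript were read out. The first pair of CCN1 probes share a run of 59 bases and differ by a shift of 1 base. Capitals mark the base of each that lies outside the shared run:
CCN1 probe 1: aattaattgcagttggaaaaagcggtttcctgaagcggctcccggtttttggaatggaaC
CCN1 probe 2: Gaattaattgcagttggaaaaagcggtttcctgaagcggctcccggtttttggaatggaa

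The other probes read distinct stretches, of which the first 30 bases are given because part of a probe may lie in an untranslated region. The last of them carries no gene name in the annotation but belongs to the same transcript cluster as the CCN2 probe, and is described beside it as a non-member:
CCN1 probe 3: ttctacaggctgttcaatgacatccacaag
CCN2 probe: tcaaccccagacactggtttgaagaattga
unnamed probe of the CCN2 cluster: ttctgtctattagactggacagcttgtggc
ANKRD1 probe: aagagcgactcatagagaaatccagcttct

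These sequences come from the deposited array annotation. CCN1 probe 3 shared a run of at most 7 bases with either other CCN1 probe, and each CCN1 probe shared a run of at most 5 with the CCN2 probe. None of the 5 shared a run of 20 bases with a probe of another gene, and the longest such runs were 12 to 14 bases. The GC content was 45.0% for each CCN1 probe, 43.3% for the CCN2 probe and 41.7% for the ANKRD1 probe. CCN1 probe 3 was named through its gene identifier, since its description says only that it matches an expressed sequence tag.

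All 5 probes were well above background on all 6 arrays and higher in corneal than in epidermal cells. For all 5, the lowest corneal array lay above the highest epidermal array. Such a separation in that direction was found for 30.5% of the genes tested, and a difference of at least 1 for 3.47% of them. Separation in the other direction was found for 36.9%. These shares are given as background, and nothing about the genes is read from them, since the same contrast chose them.

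CCN1 probe 3, which had the highest mean of the CCN1 probes and stands for the gene, had processed signals of 17879.1, 18449.8 and 18155.6 on the corneal arrays, against 11096.5, 9248.9 and 9819.2 on the epidermal arrays. Its levels were 4.31, 4.35 and 4.35 in corneal cells and 3.33, 3.27 and 3.33 in epidermal cells. All 3 corneal arrays stood above all 3 epidermal arrays, with a gap of 0.97 between the nearest of them. The group means were 4.34 ± 0.03 and 3.31 ± 0.04 in corneal and epidermal cells (SD, n = 3 each), a difference of 1.03, or 2.04-fold. Across all genes, 376 rose by more, or 3.31% of those tested.

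CCN1 probe 1 gave levels of 1.95, 2.08 and 2.04 in corneal cells, against 1.07, 1.01 and 0.97 in epidermal cells. CCN1 probe 2 gave 1.98, 2.01 and 1.98 in corneal cells, against 1.03, 0.94 and 0.97 in epidermal cells. The pair of shifted probes therefore read the same gap between the groups. Their differences were 1.00 and 1.01, or 2.00-fold and 2.02-fold. The level of probe 1 minus that of probe 2 on the same array was −0.03, 0.07 and 0.05 in corneal and 0.04, 0.06 and 0.01 in epidermal samples. Because the pair share nearly all their bases, they count as repeat readings of a single stretch, and probe 3 as a separate reading of the same gene.

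CCN2, the connective tissue growth factor, had processed signals of 25351, 24894.8 and 24161.5 on the corneal arrays, against 7534.4, 6706.2 and 6393 on the epidermal arrays. Its levels were 4.81, 4.78 and 4.77 in corneal cells, against 2.77, 2.80 and 2.71 in epidermal cells. The groups did not overlap and lay 1.96 apart at their nearest arrays. The means were 4.79 ± 0.02 in corneal and 2.76 ± 0.05 in epidermal cells (SD, n = 3 each), a difference of 2.02, or 4.07-fold. A larger rise was fitted for 93 genes, or 0.819% of those tested.

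The unnamed probe of the CCN2 cluster shared a run of only 6 bases with the CCN2 probe. Its levels were 5.92, 6.02 and 5.96 in corneal cells and 4.08, 4.13 and 4.06 in epidermal cells. It was thus also higher on every corneal array, by 1.88 between means, or 3.68-fold. Whether it reads CCN2 messenger RNA was not tested, and no value of CCN2 here rests on it.

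ANKRD1 had the largest difference of the 3 genes between the groups, read from a spot that was dim in epidermal cells. Its processed signals were 431.3, 394.6 and 408.9 on the corneal arrays, against 67.9, 62.5 and 59.6 on the epidermal arrays. In multiples of the lowest signal well above background on the same array, these were 30.4 to 45.4 in corneal and 6.52 to 8.66 in epidermal samples. Its levels were −1.07, −1.20 and −1.12 in corneal cells, against −4.03, −3.94 and −4.03 in epidermal cells. The nearest arrays of the groups lay 2.74 apart. The means were −1.13 ± 0.07 in corneal and −4.0 ± 0.05 in epidermal cells (SD, n = 3 each), a difference of 2.87, or 7.32-fold. Only 36 genes, or 0.317% of those tested, had a larger fitted rise.

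The spread within groups was small for all 3 genes. The SD over the 3 arrays of a group ran between 0.02 and 0.07 for the 5 probes, against a median over all genes tested of 0.05 in corneal and 0.06 in epidermal cells. In RNA of whole cultures, fewer cells that express a gene and less of its RNA per cell cannot be told apart.

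**Figure D1:**
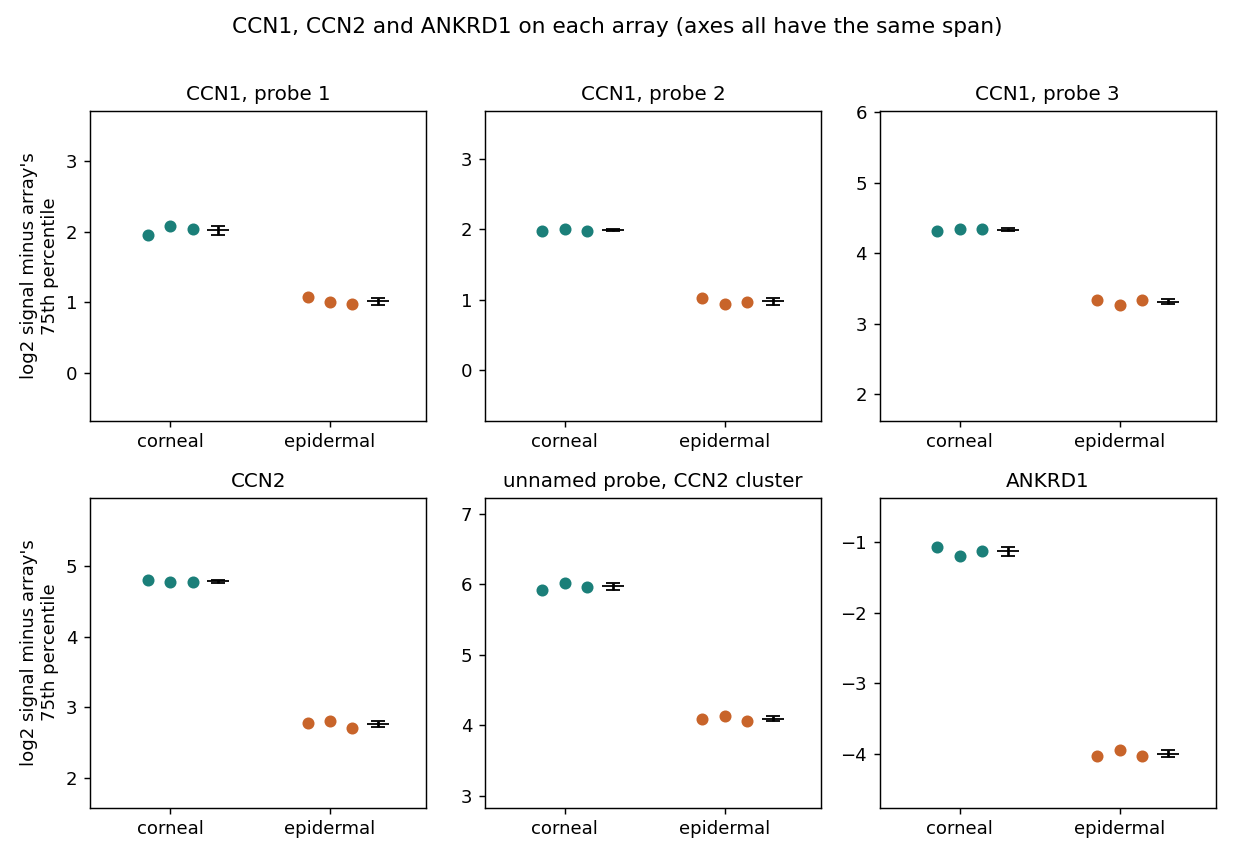
Level of each probe (log2 processed signal minus the array's 75th percentile) on the 3 corneal and 3 epidermal arrays, as points, with the group mean and SD as black bars. All vertical axes have the same span. The difference is 1.03 for CCN1 probe 3, 2.02 for CCN2 and 2.87 for ANKRD1, and in every panel the corneal points lie above the epidermal ones.

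The size of the ANKRD1 difference depended on the background correction more than the sizes for CCN1 and CCN2. With normexp, which models the background and adds an offset of 50, ANKRD1 differed by 1.26, or 2.39-fold, CCN1 by 1.25, or 2.37-fold, and CCN2 by 2.19, or 4.56-fold. That setting included 8 spots of epidermal replicate 1 with a local background over 5 times the array's median. Without them, the differences were 2.02 for ANKRD1, or 4.06-fold, 1.02 for CCN1 and 1.98 for CCN2. The epidermal ANKRD1 signals of 59.6 to 67.9 were close in size to the offset, and the CCN1 and CCN2 signals were not. ANKRD1 had the largest difference of the 3 genes in every setting run except the planned normexp setting, in which CCN2 had it.

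**Figure D2:**
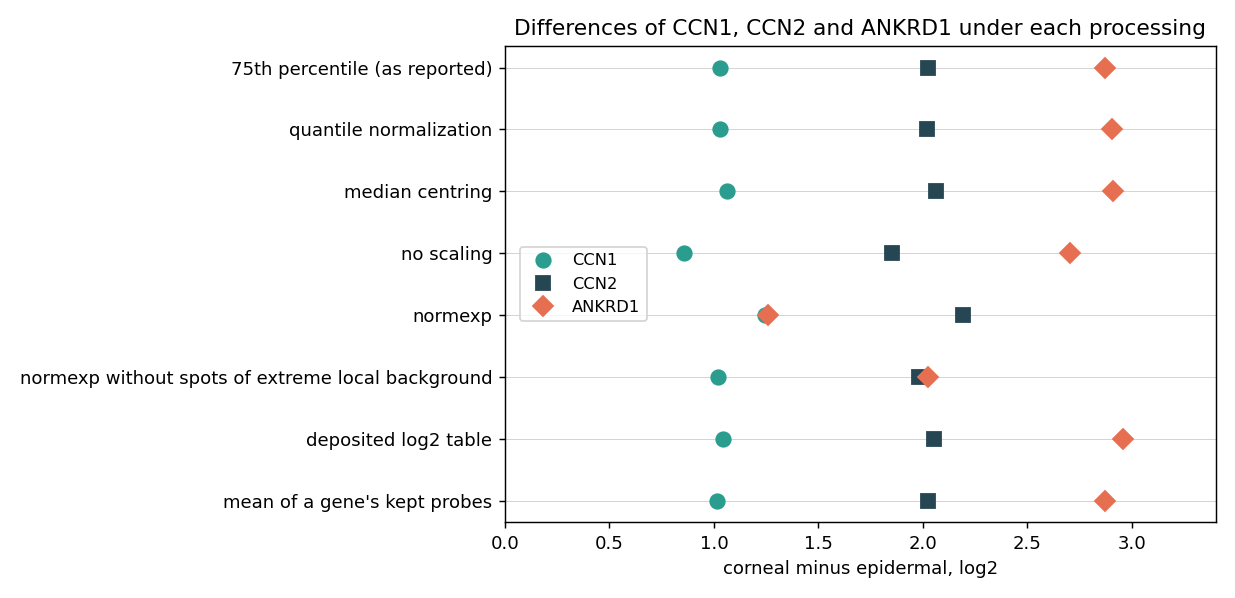
Corneal minus epidermal difference (log2) of CCN1, CCN2 and ANKRD1, each by its brightest kept probe or, in the last line, by the mean of its kept probes, under 8 ways of processing. The values stay above 0 throughout, and ANKRD1 moves from 2.87 to 1.26 with normexp and to 2.02 with normexp without the 8 spots of extreme local background.

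**Figure D3:**
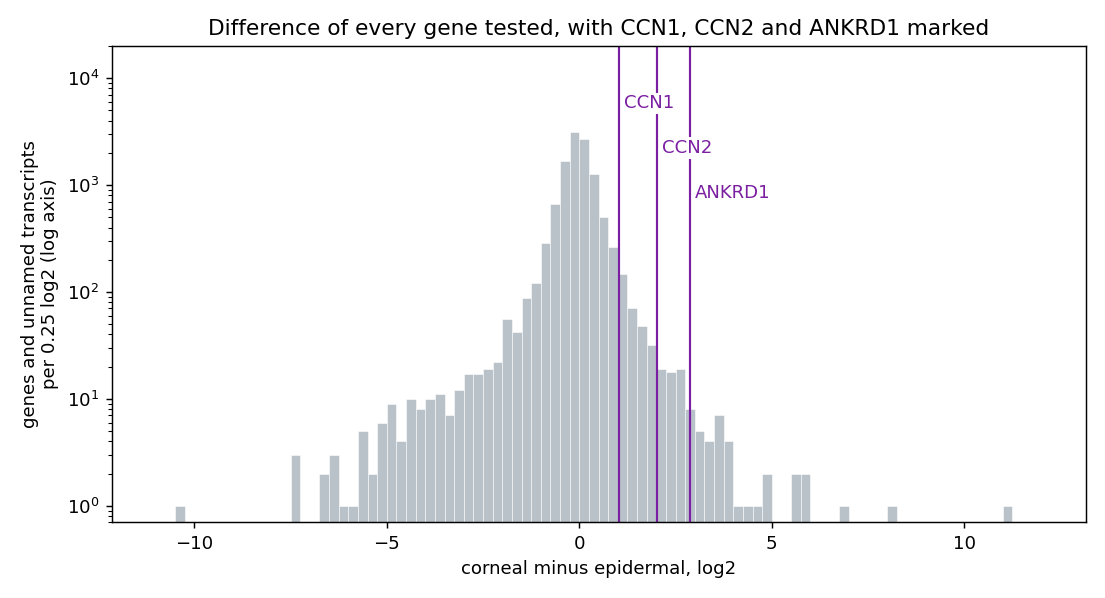
Number of genes and unnamed transcripts (log axis) by corneal minus epidermal difference (log2), over all 11352 tested. The lines mark CCN1 at 1.03, CCN2 at 2.02 and ANKRD1 at 2.87, with 3.31%, 0.819% and 0.317% of genes to the right of them.

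Of the factors that act on these genes, WWTR1, which encodes TAZ, was measured by 1 probe. Its levels were −2.48, −2.42 and −2.42 in corneal cells, against −1.90, −1.98 and −1.98 in epidermal cells. The groups did not overlap, and WWTR1 fell by 0.49 ± 0.04 (log2, SE, adjusted p = 0.000157) in corneal cells, the opposite direction to that of the 3 genes. In the planned normexp setting it stood at −0.70 and did not pass (adjusted p = 0.466). YAP1, TEAD1 to TEAD4, LATS1 and SRF, for which no probe was named, were not analysed here. RNA levels do not show where in the cell TAZ was or whether it was phosphorylated.

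Of 38 genes listed for the Hippo pathway and TEAD factors, 8 were measured, of which 1 rose, 3 fell and 4 did not pass, with a median change of −0.0017. The shares that rose and fell were 12.5% and 37.5%. Beside these and the counts of the lists below stand 26.7% and 32.6% of all genes tested. CSNK1E, a casein kinase that marks YAP for degradation after LATS, rose by 0.64 ± 0.03 (adjusted p = 2.5e-05). Besides WWTR1, the scaffold gene RASSF1 fell by 0.55 ± 0.13 (adjusted p = 0.0135). SAV1, the adaptor of the upstream Hippo kinases, fell by 0.10 ± 0.03 (adjusted p = 0.0215). The SAV1 call was lost with median centring (adjusted p = 0.0755), with normexp (0.576) and without any of 5 of the 6 arrays, where its adjusted p was 0.0526 to 0.0752. LATS2, a LATS kinase and itself a YAP target, had levels of 1.21, 1.24 and 1.26 in corneal and 1.16, 1.19 and 1.24 in epidermal cells. The LATS2 groups overlapped, with a change of 0.04 ± 0.04 (adjusted p = 0.36).

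Among 27 other genes listed as YAP and TAZ targets, 9 were measured, of which 5 rose, 2 fell and 2 did not pass. Their median change was 0.37, against −0.04 over all genes tested. EDN1, the vasoconstrictor peptide endothelin 1, had levels of −4.61, −4.81 and −4.95 in corneal cells, against −6.83, −6.55 and −6.64 in epidermal cells. It rose by 1.89 ± 0.11 (adjusted p = 5.57e-05), from a dim signal that was well above background on 2 of 3 epidermal arrays. The corneal and epidermal arrays did not overlap.

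TGFB2, a TGF-beta ligand, rose by 0.63 ± 0.12 (adjusted p = 0.0051). THBS1, the matricellular protein thrombospondin 1, which activates latent TGF-beta, had levels of 3.73, 3.76 and 3.75 in corneal cells, against 3.16, 3.28 and 3.27 in epidermal cells. It rose by 0.51 ± 0.04 (adjusted p = 0.000209). AXL, a receptor tyrosine kinase, and IGFBP3, a binding protein of insulin-like growth factors, rose by 0.46 ± 0.03 and 0.37 ± 0.06. In the planned normexp setting none of the 9 passed by limma, and at an unadjusted p under 0.05 2 rose and 0 fell. There EDN1 and TGFB2 stood at −0.41 and −0.46, while without the 8 spots of extreme local background they rose by 0.62 and 0.37.

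MYOF, the membrane repair protein myoferlin, had levels of 3.84, 3.91 and 3.85 in corneal cells, against 4.17, 4.26 and 4.19 in epidermal cells. It fell by 0.34 ± 0.04 (adjusted p = 0.000639). TGFBR2, the type II TGF-beta receptor, fell by 0.18 ± 0.03 (adjusted p = 0.00465) by its brighter probe, while its other kept probe stood at 0.18. AREG, the growth factor amphiregulin, was not well above background on any corneal array and did not pass (adjusted p = 0.0665), but passed as a fall with no scaling (adjusted p = 0.00465), with a replicate block (0.0273) and without corneal replicate 2 (0.0479) or epidermal replicate 1 (0.0196). The targets measured therefore did not all rise in corneal cells, the direction for which CCN1, CCN2 and ANKRD1 were chosen.

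**Figure D4:**
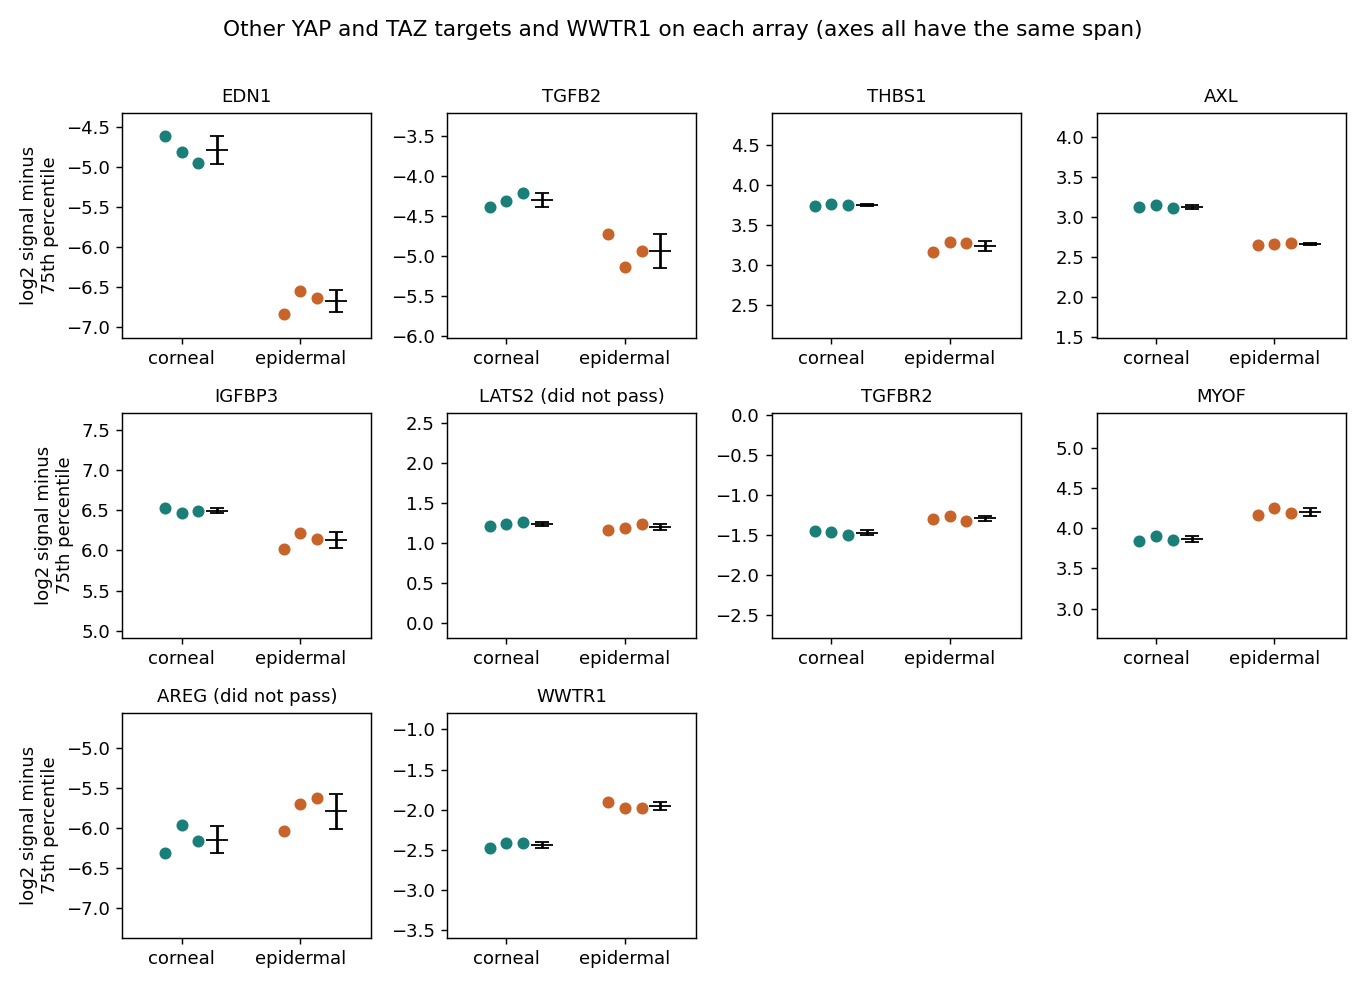
Level (log2 processed signal minus the array's 75th percentile) of the 9 other YAP and TAZ targets named here and of WWTR1 on the 3 corneal and 3 epidermal arrays, with the group mean and SD as black bars and the same span on all vertical axes. EDN1 and TGFB2 are higher by 1.89 and 0.63 in corneal cells, while MYOF and WWTR1 are lower by 0.34 and 0.49.

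The other CCN family members, CCN3 to CCN6, and ANKRD2, the closest relative of ANKRD1, had no named probe either and were not analysed here. Of 8 genes listed as ANKRD1 relatives or partners, 2 were measured. DES, the muscle intermediate filament desmin, rose by 1.21 ± 0.09 (adjusted p = 0.000166), with levels of −3.32, −3.54 and −3.64 in corneal and −4.81, −4.68 and −4.64 in epidermal cells. YBX1, a nucleic acid binding protein that partners ANKRD1 in heart muscle of rodents, fell by 0.28 ± 0.05 (adjusted p = 0.00354). DES lay at −0.19 in the planned normexp setting and did not pass there.

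Among 20 listed receptors and binding partners of CCN proteins, 13 were measured, of which 4 rose, 5 fell and 4 did not pass, with a median change of −0.09. The shares that rose and fell, 30.8% and 38.5%, were near the 26.7% and 32.6% of all genes tested. BMP4, a ligand that CCN2 binds, rose by 1.55 ± 0.03 (adjusted p = 1.12e-06). FN1, the matrix protein fibronectin, rose by 0.95 ± 0.03 (adjusted p = 8.01e-06). HSPG2, the basement membrane proteoglycan perlecan, rose by 0.79 ± 0.14 (adjusted p = 0.00502), but stood at −0.26 in the planned normexp setting.

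ITGB1, the shared beta chain of many CCN receptors, rose by 0.15 ± 0.03 (adjusted p = 0.00626), a change that with no scaling was −0.02 and did not pass. ITGB5, the beta chain that joins the alpha V integrin, fell by 0.97 ± 0.03 (adjusted p = 3.96e-06). ITGA5, the fibronectin receptor's alpha chain, fell by 0.31 ± 0.06 (adjusted p = 0.00572) by its brighter probe, while the other stood at 0.04. TGFB1, a ligand that induces CCN2 in many cell types, fell by 0.83 ± 0.04 (adjusted p = 1.85e-05). ITGAV, the alpha V chain itself, had levels of 1.33, 1.31 and 1.30 in corneal and 1.32, 1.45 and 1.42 in epidermal cells and did not pass (adjusted p = 0.124). Without epidermal replicate 1 it passed at −0.12 (adjusted p = 0.024), and with no scaling at −0.26 (adjusted p = 0.0101).

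In the TGF-beta list, 13 of 19 genes were measured, of which 3 rose, 5 fell and 5 did not pass, with a median change of −0.05, a sign that turned with quantile normalization (0.08). The shares that rose and fell, 23.1% and 38.5%, were near the 26.7% and 32.6% of all genes tested. In the planned normexp setting the list's median was −0.46, and 0 rose and 2 fell. With normexp without the spots of extreme local background it was 0.13, and 4 rose and 5 fell. Besides TGFB2 and THBS1, the type I receptor gene TGFBR1 rose by 0.92 ± 0.11 (adjusted p = 0.00108), although it stood at −0.0084 in the planned normexp setting. LTBP1, which tethers latent TGF-beta to the matrix, fell by 1.28 ± 0.04 (adjusted p = 6.28e-06). INHBA, the activin A subunit, fell by 0.32 ± 0.04 (adjusted p = 0.000901). The ligand genes TGFB1 and TGFB2 thus moved in opposite directions on the same arrays.

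Of 36 genes listed as SRF and MRTF targets or actin cytoskeleton, 14 were measured, of which 12 rose, 1 fell and 1 did not pass, with a median change of 0.28. With no scaling between arrays, which moves the median of all genes by −0.17, 4 rose and the median was 0.11. Only 2 rose and 1 fell in the planned normexp setting, where the median was 0.49. With normexp without the spots of extreme local background, 12 rose and 1 fell. ACTN4, an actin crosslinker, had levels of 3.59, 3.49 and 3.55 in corneal cells, against 2.45, 2.47 and 2.46 in epidermal cells. It rose by 1.08 ± 0.03 (adjusted p = 5.37e-06). CNN1, the actin-binding protein calponin 1, also rose by 1.08, with an SE of 0.04 (adjusted p = 7.8e-06). MYL6, a nonmuscle myosin light chain, rose by 0.68 ± 0.05 (adjusted p = 0.00015), but did not pass in the planned normexp setting (adjusted p = 0.179).

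The other 9 that rose, including the cytoplasmic actins ACTB and ACTG1, changed by 0.14 to 0.47. With no scaling, ACTB and ACTG1 stood at 0.16 and 0.07 and did not pass. Nor did they pass in the planned normexp setting (adjusted p = 0.435 and 0.547). Cross-hybridisation between the near-identical actins was not tested. MYLK, myosin light chain kinase, had levels of 0.09, 0.19 and 0.13 in corneal cells, against 3.55, 3.16 and 3.25 in epidermal cells. It fell by 3.18 ± 0.10 (adjusted p = 6.17e-06), and its other kept probe fell by 3.29.

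Of 25 integrin and focal adhesion genes, 7 were measured, of which 2 rose, 3 fell and 2 did not pass. The shares that rose and fell were 28.6% and 42.9%, beside 26.7% and 32.6% of all genes tested. ILK, the integrin-linked kinase, rose by 0.50 ± 0.05 (adjusted p = 0.000634). CAV1, the caveolar coat protein caveolin 1, fell by 1.47 ± 0.05 (adjusted p = 7.64e-06), and its 3 kept probes lay between −2.12 and −1.42.

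CCN1 is also an immediate early gene, switched on by serum and growth factors within minutes. Of 21 listed genes of that class other than CCN1, 7 were measured, of which 1 rose, 5 fell and 1 did not pass, with a median change of −0.48. The shares that rose and fell were 14.3% and 71.4%, beside 26.7% and 32.6% of all genes tested. In the planned normexp setting 0 rose and 1 fell. EGR1, a zinc finger factor, had levels of 0.81, 0.95 and 0.90 in corneal cells, against 2.71, 2.96 and 2.84 in epidermal cells. It fell by 1.95 ± 0.07 (adjusted p = 1.07e-05), with 6 kept probes between −1.95 and −0.21. FOS, a subunit of AP-1, fell by 0.98 ± 0.04 (adjusted p = 1.65e-05) by its brightest probe, with 4 kept probes between −0.98 and −0.35, and did not pass in the planned normexp setting (adjusted p = 0.196). MYC fell by 0.51 ± 0.05 (adjusted p = 0.000337), and JUND, another AP-1 subunit, rose by 0.37 ± 0.04 (adjusted p = 0.000865). CCN1 was 2.04-fold higher in corneal cells, while most measured genes of this class fell in the reported setting. CCN1 was chosen for its rise, so this contrast of directions is only a description.

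**Figure D5:**
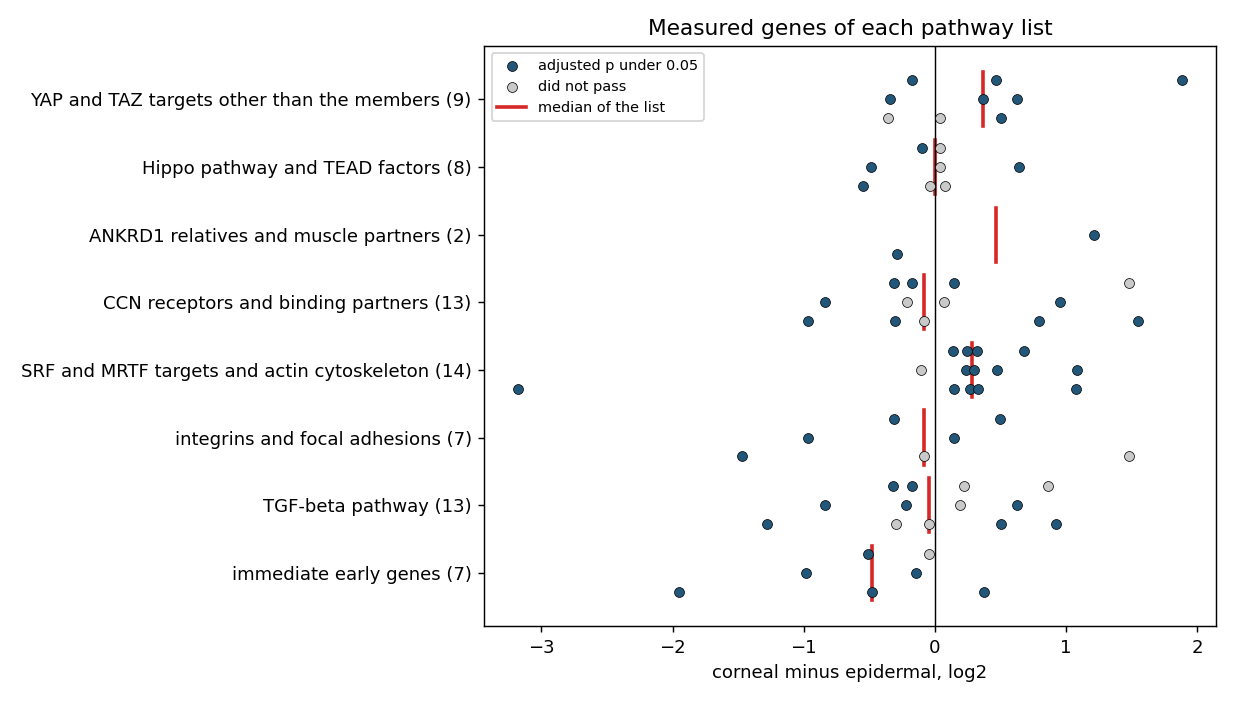
Corneal minus epidermal change (log2) of the measured genes of each pathway list, with the number measured in brackets, genes that passed the test in blue, those that did not in grey and the list's median as a red line. CCN1, CCN2 and ANKRD1 are left out. In the reported setting the medians are 0.37 for the YAP and TAZ targets, 0.28 for the SRF list and −0.48 for the immediate early genes. In the planned normexp setting they are −0.12, 0.49 and −0.33.

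The lists together held 181 genes, of which 63 were measured, and 26 of these rose, 21 fell and 16 did not pass. The share that rose was 41.3%, beside 26.7% of all genes tested, and the share that fell was 33.3%, beside 32.6%. The lists were chosen with results of these data known, so these shares are a description.

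ANKRD1 and DES are abundant in muscle, so muscle markers were read beside them. Of 20 markers of cardiac and skeletal muscle, 3 were measured, none rose, MYOG fell, and MYOD1 and TNNC2 did not pass. MYOD1 passed at −0.28 without epidermal replicate 1 and at −0.37 with no scaling. MYOG was well above background on 1 of 3 corneal arrays. It did not pass with quantile normalization (adjusted p = 0.0724), in the deposited log2 table (0.0773) or with normexp (0.576). TNNC2 passed at −0.19 without corneal replicate 1, at −0.52 with no scaling and at −0.42 with the mean of its kept probes. Their summed level, in multiples of the array's 75th percentile signal, was 0.0594 to 0.0663 in corneal and 0.0749 to 0.0831 in epidermal samples. MYH7, the slow and cardiac myosin heavy chain, was well above background on none of the 6 arrays. TNNT2 and ACTC1 were not analysed here.

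Of 10 smooth muscle and pericyte markers, 3 were measured, and DES and CNN1 rose while MYLK fell. Their summed level was 12.6 to 13.4 in corneal and 14.4 to 17.4 in epidermal samples, and ACTA2 was not analysed here. Of the 18 fibroblast and mesenchymal markers listed, FN1 and COL5A2 were those that rose, by 0.95 and 0.74. Besides POSTN and COL3A1, COL6A3, COL1A1, PDGFRA, LUM and SPARC fell, with changes of −1.48, −0.54, −0.51, −0.39 and −0.28. The fibroblast sum was 1130 to 1150 in corneal and 1180 to 1420 in epidermal samples.

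Of 10 endothelial markers, 5 were measured, none rose and 3 fell. Of the 3 that fell, 2 were not well above background on any corneal array. With normexp, with or without the spots of extreme local background, 0 rose and 0 fell. The endothelial sum was 0.481 to 0.508 in corneal and 0.419 to 0.52 in epidermal samples. PECAM1 was well above background on none of the 6 arrays. Of 10 immune markers, 4 were measured, none rose and 2 fell. The larger fall was that of FCGR3A, by 4.82 ± 0.20 (adjusted p = 1.51e-05), with mean levels of −5.99 in corneal and −1.16 in epidermal cells. The immune sum was 14.6 to 15 in corneal and 23.1 to 24 in epidermal samples, which rests mostly on CD14, a receptor for bacterial products that fell by 0.66 ± 0.03 (adjusted p = 2.25e-05). Of 14 keratinocyte markers, 3 were measured, and PPL, the cornified envelope protein periplakin, fell by 0.54 ± 0.03 (adjusted p = 5.23e-05). The keratinocyte sum was 11.7 to 11.9 in corneal and 16.6 to 17.4 in epidermal samples, which rests mostly on PPL. The other measured markers, KRT15 and DSP, were dim and did not pass (adjusted p = 0.416 and 0.15). Their mean levels were −6.54 and −6.05 in corneal cells, against −6.40 and −5.68 in epidermal cells. With no scaling, DSP passed at −0.53 (adjusted p = 0.0239). The 2 measured corneal markers, PAX6 and ALDH1A1, summed to 0.285 to 0.317 in corneal and 3.21 to 3.31 in epidermal samples. The part of these cell types in the levels of CCN1, CCN2 and ANKRD1 was not tested.

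The genes most like each of the 3 in profile over the 6 arrays were sought among 656 named genes well above background on all arrays, by the root mean square difference of mean-centred levels. Because a single difference between the groups dominates each profile, likeness here is mainly likeness in the size of that difference. Nearest to CCN1 were TYMS, the thymidylate synthase, at 0.0231, PGR, the progesterone receptor, at 0.0254 and CNN1 at 0.0317. TYMS had levels of 0.99, 0.99 and 0.99 in corneal cells, against −0.03, −0.03 and −0.01 in epidermal cells.

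Nearest to CCN2 were the iron carrier transferrin, TF, at 0.0577, the small heat shock protein alpha B-crystallin, CRYAB, at 0.0806 and the inhibin alpha subunit, INHA, at 0.142. CRYAB had levels of 2.05, 1.99 and 1.98 in corneal cells, against −0.22, −0.11 and −0.18 in epidermal cells. Nearest to ANKRD1 were the pattern recognition receptor TLR2 at 0.0791, the thyroxine and retinol carrier transthyretin, TTR, at 0.133 and the laminin-related protein netrin 4, NTN4, at 0.157. TLR2 had levels of 1.03, 1.09 and 1.07 in corneal cells, against −1.74, −1.65 and −1.70 in epidermal cells. Except for CNN1, none of these 9 genes stood in a pathway list. In the planned normexp setting INHA stood at −0.07, and PGR, TF and TTR at 0.46, 0.65 and 1.11, where none of these 4 passed.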

How the data were processed

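Scanner files of 6 single-colour (Cy3) Agilent arrays were used. Per the submitters' processing notes the scans were read with Agilent Feature Extraction 10.7. The deposited processed signal is a linear intensity, background-subtracted and detrended per the file headers. The authors also deposited a log2 table, used as an alternative. Its 6 columns have a median of 7.23, correlate at 0.999 to 1.00 with the log2 processed signal of their own array and differ by at most 0.02 at equal rank, as quantile normalization leaves them. How the authors made it is not stated in these sources. By this comparison its scale is log2 with no centring of genes, and a direction does not apply to single-colour levels.

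Here, each array's 75th percentile was subtracted from its log2 processed signals and spots of the same probe were averaged, leaving out control spots and outlier flags. Probes well above background on at least 3 of 6 arrays were kept, and the kept probe of highest mean stood for its gene. A kept probe without a symbol stood for itself. Of 15008 probes, 1584 were given one of 984 symbols from their annotation, matched to RefSeq genes of ARS-UI_Ramb_v3.0, from which no coordinates were taken. Descriptions were read for the genes of the lists, so other genes known only by description stayed unnamed.

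Corneal minus epidermal differences were fitted over all 6 arrays by lmFit and eBayes of limma 3.58.1 (R 4.3.3), adjusted by Benjamini-Hochberg over 11352 genes and unnamed transcripts at 0.05. The number of arrays limits the precision. Alternatives changed the scaling, background correction, filter, probe choice, naming and replicates.

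The genes and lists were chosen with earlier results of these data known, and no test is given for CCN1, CCN2 or ANKRD1. Besides these, the genes named were, for each, the 3 nearest profiles, the 3 largest called rises and falls of each pathway list with a set of pathway genes, and the 2 brightest members of each cell type list with defining markers. AXL, IGFBP3, AREG, ITGAV, ACTB, ACTG1, MYOG, COL5A2, POSTN, COL3A1, COL6A3, COL1A1, PDGFRA, LUM, SPARC, KRT15 and FCGR3A were named after their values were seen. KRT19 was named only as not kept. Some items are not reported here and were left out of the lists' counts.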

Additional observations from a re-analysis of the deposited data

How the results depend on the processing

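The differences of CCN1, CCN2 and ANKRD1 stayed above 0 in every setting run. Without each replicate in turn they were 1.01 to 1.04, 2.00 to 2.05 and 2.84 to 2.91. With no scaling they were 0.86, 1.85 and 2.70, with normexp 1.25, 2.19 and 1.26. With normexp without the spots of extreme local background CCN2 was 1.98 and ANKRD1 2.02. CCN1 was 1.06 with median centring and ANKRD1 2.96 in the deposited log2 table. The cause was not tested, apart from what these settings remove or add.

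Over all genes, 3026 were called higher and 3698 lower. These counts were 1462 and 5079 with no scaling, 184 and 207 with normexp, and 3716 and 3113 with normexp without the spots of extreme local background. The share of calls that were higher was 45.0%, against 22.4% with no scaling, 49.4% with quantile normalization and 54.4% with the last setting. Without each replicate, 2667 to 2954 were higher and 3228 to 3573 lower. Signal over background limits EDN1, well above background on 2 of 3 epidermal arrays, MYOG and DSP, on 1 of 3 corneal arrays, and AREG, on no corneal array.

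Of the pathway lists together, 26 rose and 21 fell. With no scaling 17 rose and 26 fell, with normexp 3 rose and 4 fell, and with names from accession, gene identifier or current symbol alone 16 rose and 10 fell. Without each replicate, 24 to 26 rose and 20 to 24 fell. Of the YAP and TAZ targets, 5 rose and 2 fell, and without each replicate 5 rose and 2 to 3 fell. With normexp 0 rose and 0 fell by limma (2 and 0 at an unadjusted p under 0.05). With the mean of a gene's probes 1 fell, and with the stricter names 3 rose and 1 fell.

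Of the named genes that passed in the reported setting, those that turned in sign were, with no scaling, ITGB1 (−0.023) and, with normexp, INHA (−0.069), EDN1 (−0.41), TGFB2 (−0.46), DES (−0.19), HSPG2 (−0.26), TGFBR1 (−0.0084) and PAX6 (−0.26), and, with normexp without the spots of extreme local background, MYOG (0.12), and 34 other named genes lost their call with normexp. DCN, LATS2, VIM, COL1A2, ENG, EGFL7, MYOD1, DSP, KRT15, AREG and ITGAV changed sign in some settings. With the reported sign, VIM, COL1A2, MYOD1, AREG and ITGAV passed in settings given above. EGFL7 passed without epidermal replicate 2 (0.37, adjusted p = 0.0102) and DSP with no scaling (−0.53, adjusted p = 0.0239). In the settings where the sign changed, none of the genes that changed it passed, apart from DCN as follows. Without epidermal replicate 1, DCN was −0.18 (adjusted p = 0.0115), and without each replicate −0.18 to 0.21.

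Same-numbered arrays did not deviate together (correlations 0.02, −0.02 and 0.04), so no pairing by number showed in these values. The labels do not say whether the samples were paired. A replicate block gave 2676 higher and 3322 lower calls, left the differences of CCN1, CCN2 and ANKRD1 as they were, and among the named genes ended only the call of SAV1 (adjusted p = 0.0813) and added that of AREG (adjusted p = 0.0273).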
